A study of Gallus gallus with 6 samples.

Results

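The secreted Wnt ligands, their receptors and the proteins that bind or amplify them outside the cell were examined in RNA-seq of chicken cloacal skin. Members were taken by gene symbol alone: every gene in the FPKM tables whose NCBI chicken symbol is WNT, FZD, SFRP or DKK followed by a digit, and FRZB, WIF1, LRP5, LRP6 and RSPO1 to RSPO4. The rule itself uses no expression value, but it was set with earlier results of these data known. The rule gave 44 of 18315 genes: 19 WNT ligands, 10 FZD receptors, the 2 LRP co-receptors, 4 R-spondins, 4 SFRP genes with FRZB, 3 DKK genes and WIF1. FPKM is a fragment count scaled to transcript length and library size, so levels of different genes can be compared per length. A gene was tested where its mean over the 6 libraries was at least 0.1 FPKM, which 41 of the 44 members and 15900 genes in all reached.

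The birds were Ma-Huang chickens of a commercial pure broiler line, 120 days old and raised under the same feeding. Yellowness was read with a colorimeter on the cloacal skin of the living birds, and 3 birds with high values formed the s_deep group and 3 with low values the s_light group. After slaughter, each bird gave 1 library, made from a disc of cloacal skin 8 mm wide that had been freed of the fat beneath it. The groups were thus formed by measured colour and not by a treatment or a genotype, and the labels give neither sex nor batch. Each p-value is for a difference between the groups, with the bird as the unit and 3 birds in each group. Where a library was left out, 1 group had fewer birds.

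The libraries stand apart in 1 respect that divides the s_deep group. Genes of the W chromosome, which only hens carry, had a low mean log2 value of -1.32 in s_deep6402 and -1.6 in s_deep6403. It was 2.70 to 3.02 in the other 4 libraries, which are called the libraries with W reads below. So s_deep7858 was the only s_deep library with W reads in this sense, while all s_light libraries had them. No member lies on W or Z. Skin colour group and W reads could not be told apart for s_deep6402 and s_deep6403. The difference with the W level as a covariate is therefore also given for some members. These are members whose unadjusted p was under 0.05 or whose groups did not overlap, and DKK2, DKK3, FRZB, WIF1 and WNT9A. Since s_deep7858 is the only s_deep bird among the 4 libraries with W reads, every W-adjusted difference rests largely on that bird. Markers fitted the skin label: KRT5, a keratin of the basal epidermis, was read at 769 to 1369 FPKM and COL1A1, a collagen of dermal fibroblasts, at 454 to 1259 FPKM.

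Wnt proteins are lipid-modified signals that are secreted by one cell and bind Frizzled receptors on the next. In the β-catenin branch, Frizzled acts with LRP5 or LRP6 to protect β-catenin from destruction, and β-catenin then works with TCF and LEF factors in the nucleus. R-spondins bind LGR receptors and keep Frizzled on the cell surface, whereas SFRP proteins, FRZB and WIF1 bind Wnts, and most DKK proteins block LRP5 and LRP6. In skin the pathway is known for the formation of hair and feather buds, for renewal of the epidermis and for dermal fibroblast identity. Other Wnts, of which WNT5A is the best known, act largely through planar polarity and calcium branches that do not need β-catenin.

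A few ligands carried most of the Wnt message. WNT5A was the highest of all members in 6 of 6 libraries. In s_deep6402, s_deep6403 and s_deep7858 it had 82.9, 79.0 and 78.9 FPKM, against 70.1, 93.1 and 78.3 FPKM in s_light6575, s_light6971 and s_light8275. Its mean of 80.4 FPKM lay above that of 94.9% of tested genes, and the s_deep and s_light means of 80.3 ± 2.27 and 80.5 ± 11.6 FPKM (SD, n = 3) were nearly equal. In the same order of libraries, which is kept throughout, WNT16, a ligand best known from bone, had 71.4, 33.3 and 47.9 FPKM in the s_deep birds against 42.0, 65.1 and 54.2 FPKM in the s_light birds. The spread within s_deep alone thus exceeded the difference of the group means, 50.9 ± 19.2 and 53.8 ± 11.5 FPKM (exact permutation p = 0.9, two-sided). WNT4 followed with a mean of 39.3 FPKM and WNT6 with 26.8 FPKM. Together these 4 ligands made up 81.4% of the summed FPKM of the 19 WNT genes.

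The remaining ligands were lower. WNT10A, a ligand of feather, hair and tooth development, had a mean of 10.9 FPKM and WNT2B one of 9.41 FPKM. WNT7B, WNT5B, WNT3A and WNT3 lay between 2.80 and 6.47 FPKM. WNT2, WNT9A, WNT7A and WNT11 had means between 1.09 and 1.76 FPKM, and WNT1 and WNT8B means of 0.69 and 0.31 FPKM. The 3 members below the filter were ligands as well. WNT8A was read at 0.31 FPKM in s_light6575 and at no more than 0.07 FPKM elsewhere, WNT11B at 0.06 FPKM or less throughout, and WNT9B at 0.01 FPKM in s_deep7858 alone and 0 in the rest. Depth per gene is unknown from FPKM, so these low values do not show that the genes are silent. The ligand sum was 240 ± 16.8 FPKM in s_deep and 248 ± 23.1 FPKM in s_light.

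**Figure D1:**
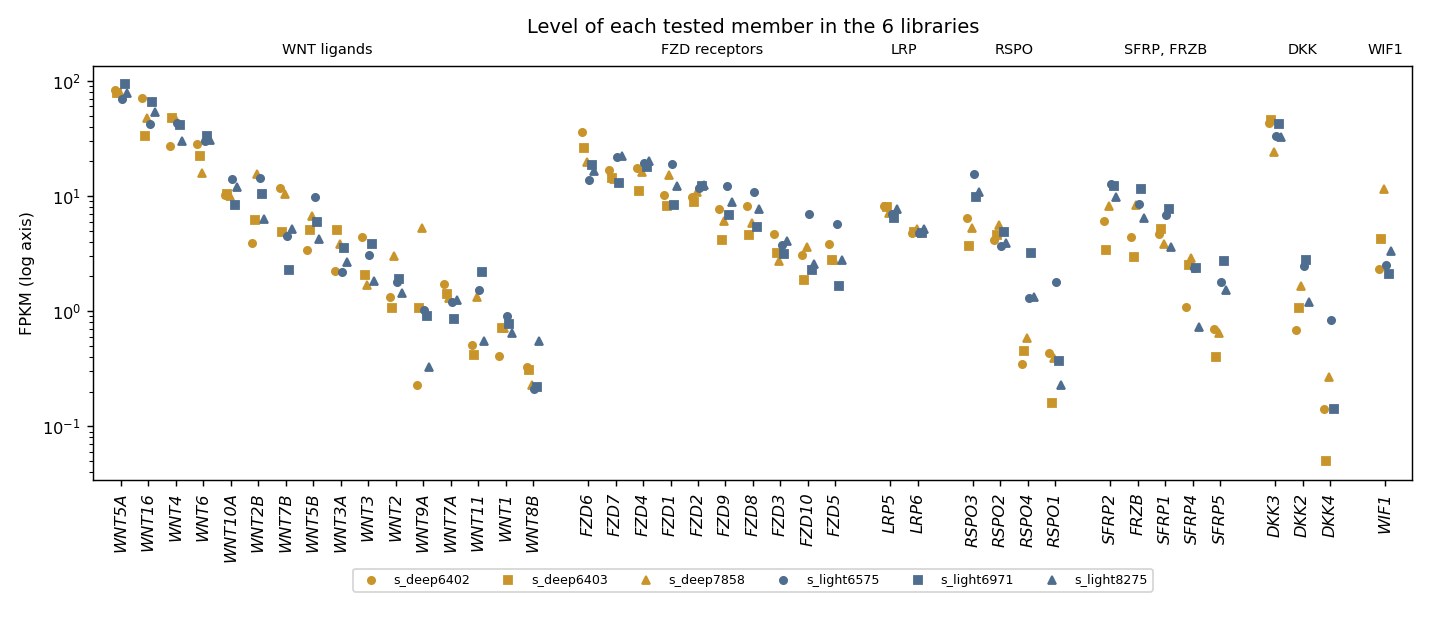
FPKM (log axis) of the 41 tested members in each of the 6 libraries, grouped by role and ordered by mean level within a role; gold points are s_deep and blue points s_light libraries. WNT5A lies at the top with its 6 points between 70.1 and 93.1 FPKM, LRP6 has the tightest points, and WNT9A and WIF1 have 1 high point each, from s_deep7858; the value of 0 for DKK4 in s_light8275 cannot be drawn on a log axis.

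Some ligand genes that are neighbours on the chromosome, with no coding gene between them in the reference annotation used here, differed in level. WNT6 and WNT10A form such a pair, with means of 26.8 and 10.9 FPKM. WNT3 was read at 2.80 FPKM beside WNT9B at 0.0017 FPKM. WNT3A and WNT9A had means of 3.25 and 1.47 FPKM, and their libraries ranked differently. The WNT9A mean was raised by s_deep7858, at 5.25 FPKM against 0.23 to 1.06 FPKM in the other libraries.

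All 10 FZD receptors were read above 1 FPKM. FZD6 was the highest at 21.8 FPKM, followed by FZD7 at 17.1 FPKM, FZD4 at 17.0 FPKM, FZD1 at 12.2 FPKM and FZD2 at 11.04 FPKM, and FZD5 was the lowest at 3.25 FPKM. The order at the top depended on the group: in s_deep FZD6 led with a mean of 27.4 FPKM, and in s_light FZD4 and FZD7, with means of 19.05 and 19.00 FPKM, were above FZD6 at 16.3 FPKM. The means of FZD7 and FZD4 differed by far less than the spread between libraries. FZD7, a receptor known for its part in early development and stem cells, had 17.0, 14.4 and 14.2 FPKM in the s_deep birds against 21.7, 12.9 and 22.4 FPKM in the s_light birds. Its s_light6971 library was below all s_deep libraries and the other s_light libraries above them. The co-receptors were the steadiest members. LRP6 had 4.78, 4.84 and 5.2 FPKM in the s_deep birds against 4.77, 4.81 and 5.19 FPKM in the s_light birds, a ratio of 1.09 between its highest and lowest library. LRP5 had 8.14, 7.96 and 7.17 FPKM in the s_deep birds against 6.98, 6.42 and 7.73 FPKM in the s_light birds, a ratio of 1.27 (exact permutation p = 0.2 between groups, two-sided).

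Among the antagonists DKK3 was the highest, with 43.5, 45.7 and 24.1 FPKM in the s_deep birds against 33.3, 42.3 and 32.8 FPKM in the s_light birds. It is a divergent member of its family whose binding to LRP5 and LRP6 is in doubt. Its group means of 37.8 ± 11.9 and 36.1 ± 5.32 FPKM did not differ beyond the spread between birds (exact permutation p = 0.8, two-sided). The limma log2 fold change was -0.02, and with the W covariate it was 0.56 (limma unadjusted p = 0.0160). DKK2, which does bind the co-receptors, had a mean of 1.64 FPKM and DKK4, a Wnt target gene in feather and hair buds, one of 0.24 FPKM. SFRP2, FRZB and SFRP1 had means of 8.71, 7.01 and 5.30 FPKM, and SFRP4 and SFRP5 of 2.01 and 1.30 FPKM. RSPO3 led the R-spondins at 8.62 FPKM, followed by RSPO2 at 4.46, RSPO4 at 1.21 and RSPO1 at 0.56 FPKM.

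No member passed the test across all genes. With limma on log2(FPKM + 0.1), called genes being those with a Benjamini-Hochberg adjusted p of at most 0.05 and at least a 2-fold difference, 7 of 15900 genes (0.044%) were called and 0 of 41 members. The lowest adjusted p of a member in limma was 0.306, for SFRP5. At a limma unadjusted p under 0.05 there were 7 members, or 17.1%, against 6.45% of all genes tested. RSPO3, RSPO4, SFRP2, SFRP5 and WNT6 were on the side higher in s_light, where 3.49% of all genes lay, and FZD6 and WNT7B on the side lower in s_light, where 2.96% lay. For 9 members, or 22%, the 3 birds of a group all lay above the 3 of the other, against 10.8% of all genes tested. These were RSPO3, RSPO4, SFRP2, SFRP5, WNT6, FZD2 and FZD4, higher in s_light (5.36% of all genes), and FZD6 and WNT7A, lower in s_light (5.48% of all genes).

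The members also varied more between birds of the same group than the typical gene. The median standard deviation within a group was 0.45 on the log2 scale for members and 0.27 for all genes tested. The median absolute log2 fold change was 0.34 for members and 0.16 for all genes. Tested members were also lower in level, with a median mean of 5.30 FPKM against 8.41 FPKM for all genes tested. The part of level in the wider spread was not tested. A log2 fold change of 1 or more in either direction was found for 5 members, against 5.26% of all genes. The fold change was above 0, that is higher in s_light, for 27 members and below 0 for 14, with a median of 0.20. That median was 0.05 without s_light6575, 0.09 without s_deep6403, 0.31 without s_deep7858 or s_light6971, and 0.08 with the W covariate. Over all genes 46.2% were above 0, with a median of -0.02. By role, the median log2 fold change was 0.96 for the 4 R-spondins, 0.84 for SFRP genes with FRZB, 0.29 for FZD receptors, 0.25 for the DKK genes, 0.10 for the 16 tested WNT ligands and -0.07 for the co-receptors, while WIF1, alone in its role, had -0.86.

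**Figure D2:**
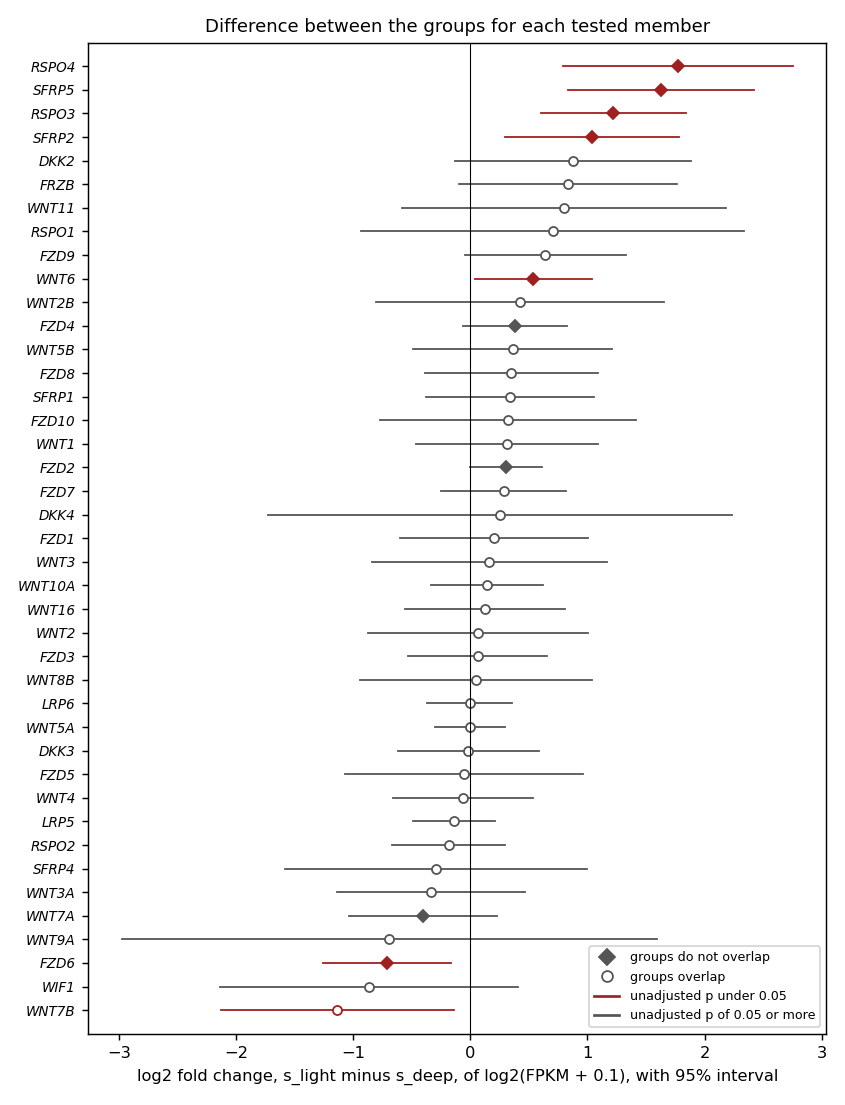
Log2 fold change (s_light minus s_deep, on log2(FPKM + 0.1)) of each tested member with its 95% limma interval, ordered from highest to lowest. Filled diamonds mark the 9 members whose groups do not overlap, red the 7 with a limma unadjusted p under 0.05; RSPO4 at 1.77 is at the top and WNT7B at -1.13 at the bottom, and none had an adjusted p below 0.306.

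The R-spondins RSPO3 and RSPO4 were among the members with the widest gap between groups. RSPO3, known from blood vessel development in mice, had 6.5, 3.69 and 5.28 FPKM in the s_deep birds against 15.5, 9.79 and 10.9 FPKM in the s_light birds. The lowest s_light bird was above the highest s_deep bird, and the means were 5.16 ± 1.41 and 12.1 ± 3.04 FPKM, a ratio of 2.34. The limma log2 fold change was 1.22 (SE 0.26, 95% interval 0.60 to 1.84, unadjusted p = 0.0023, adjusted p = 0.336), and the exact permutation p was 0.1, the smallest that 20 assignments of 3 against 3 allow. It stayed between 1.0 and 1.4 when any library was left out and was 1.11 with the W level as a covariate. RSPO4, which in humans is required for nail formation, was low throughout. It had 0.35, 0.45 and 0.58 FPKM in the s_deep birds against 1.30, 3.23 and 1.34 FPKM in the s_light birds, again without overlap, with s_light6971 far above the rest. Its limma log2 fold change was 1.77 (SE 0.42, 95% interval 0.79 to 2.75, unadjusted p = 0.0037, adjusted p = 0.384). It was 1.54 with the W covariate (limma unadjusted p = 0.0403) and 1.47 in the 4 libraries with W reads alone. The last fit has 1 s_deep bird, so no p-value is given for it.

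The other R-spondins did not share this pattern. RSPO2, an R-spondin of hair follicles and limb buds in mammals, had 4.11, 4.57 and 5.59 FPKM in the s_deep birds against 3.71, 4.91 and 3.88 FPKM in the s_light birds, so that its groups overlapped (limma log2 fold change -0.19, unadjusted p = 0.391, adjusted p = 0.984). RSPO1 had 0.43, 0.16 and 0.39 FPKM in the s_deep birds against 1.78, 0.37 and 0.23 FPKM in the s_light birds, high in s_light6575 alone. The 4 genes summed to 10.7 ± 1.6 FPKM in s_deep and 19.0 ± 3.03 FPKM in s_light, and RSPO2 exceeded RSPO3 in s_deep6403 and s_deep7858. Of their receptors, LGR4 was the highest at 30.2 to 45.03 FPKM, with overlapping groups. LGR5, a Wnt target gene and stem cell marker in mammals, had 0.31, 0.17 and 0.26 FPKM in the s_deep birds against 2.25, 1.01 and 0.39 FPKM in the s_light birds. Every s_light bird was above every s_deep bird, although s_light8275 only just (limma log2 fold change 1.67, SE 0.58, unadjusted p = 0.0240, adjusted p = 0.685). The LGR5 log2 fold change was 1.11 without s_light6575 (limma unadjusted p = 0.0648), 1.65 without s_light6971 (unadjusted p = 0.0606), 1.498 without s_deep6403 (unadjusted p = 0.0717) and 1.55 with the W covariate (unadjusted p = 0.119).

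Of the secreted Wnt binders, SFRP2 and SFRP5 were higher in every s_light bird. SFRP2, a product of dermal fibroblasts, had 6.01, 3.41 and 8.23 FPKM in the s_deep birds against 12.7, 12.1 and 9.75 FPKM in the s_light birds. The group means were 5.88 ± 2.41 and 11.5 ± 1.57 FPKM, a ratio of 1.96 (limma log2 fold change 1.04, SE 0.31, 95% interval 0.29 to 1.78, unadjusted p = 0.0130, adjusted p = 0.614). Here s_deep7858 came nearest to s_light, and with the W covariate the log2 fold change was 0.47 (limma unadjusted p = 0.196). SFRP5, known in mammals as an adipose antagonist of WNT5A, had 0.70, 0.40 and 0.64 FPKM in the s_deep birds against 1.80, 2.73 and 1.53 FPKM in the s_light birds. Its lowest s_light value exceeded its highest s_deep value by more than the whole range of s_deep (limma log2 fold change 1.63, SE 0.34, 95% interval 0.84 to 2.42, unadjusted p = 0.0018, adjusted p = 0.306), and the W covariate left it at 1.49. Leaving out any 1 library kept SFRP2 between 0.70 and 1.32 and SFRP5 between 1.4 and 1.8.

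FRZB, an antagonist first known from cartilage, had 4.38, 2.93 and 8.32 FPKM in the s_deep birds against 8.5, 11.5 and 6.43 FPKM in the s_light birds. The groups overlapped through s_deep7858 and s_light8275 (limma log2 fold change 0.84, SE 0.39, unadjusted p = 0.0710, adjusted p = 0.809). Without s_deep7858 the log2 fold change was 1.23 (limma unadjusted p = 0.0073), and with the W covariate it was 0.08. SFRP1 and SFRP4 overlapped widely, with log2 fold changes of 0.34 and -0.29 and limma unadjusted p of 0.305 and 0.609. The 5 genes summed to 18.4 ± 4.91 FPKM in s_deep and 30.2 ± 7.37 FPKM in s_light, with overlap.

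Other cell types differed between the skin pieces in the same libraries. The summed level of 12 smooth muscle markers was 2256 to 4061 FPKM in s_deep and 4963 to 9522 FPKM in s_light. Of the 12, 9 (75%) had groups that did not overlap, all higher in s_light, against 10.8% of all genes tested. ACTA2 was the 1 smooth muscle marker with a log2 fold change below 0, at -0.32. The 8 adipose markers summed to 1554 to 1864 FPKM in s_deep and 2254 to 2358 FPKM in s_light. Groups did not overlap for 3 of the 8 (37.5%), all 3 higher in s_light. ADIPOQ, the adipose marker with the highest mean at 903 FPKM, was the 1 with a log2 fold change below 0, at -0.35. The leukocyte markers summed to 2544 to 2941 FPKM in s_deep and 1811 to 2425 FPKM in s_light. CD74 alone had a mean of 2266 FPKM of this sum, and only CD74 and LCP1 of the 8 tested leukocyte genes had groups that did not overlap, both lower in s_light. The sums of 17 dermal fibroblast and 20 epidermal markers overlapped. The part of these cell types in the differences of RSPO3, RSPO4, SFRP2, SFRP5 and the other members was not tested. In bulk skin, more cells of a type and more RNA per cell cannot be told apart. Of 8 markers of gut and gland epithelium, which border on cloacal skin, CDX1, CDX2, MUC2 and AQP5 stayed at 0.15 FPKM or less, whereas CDH17 was read at 1.08 to 3.71, CFTR at 0.83 to 2.90, VIL1 at 0.42 to 1.47 and FABP2 at 0.00 to 0.95 FPKM.

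**Figure D3:**
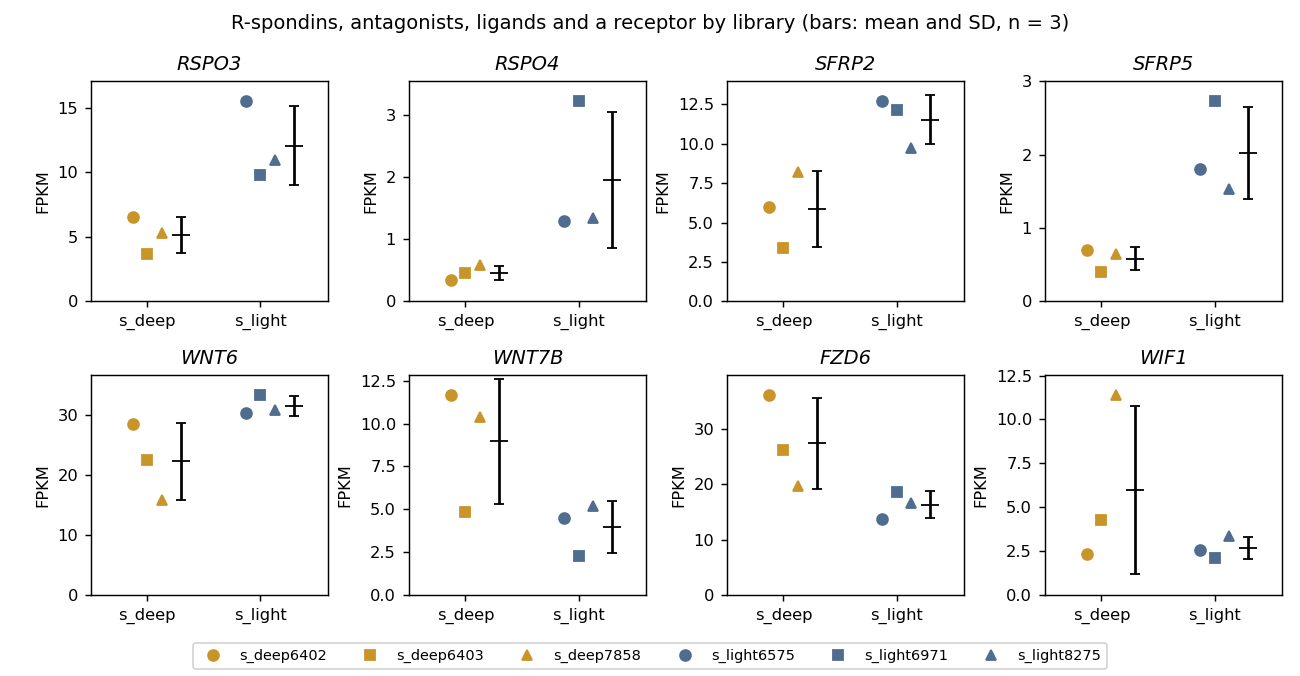
FPKM of 8 members by library (points; gold s_deep, blue s_light) with the group mean and SD (bars, n = 3); each panel starts at 0 and has its own scale. RSPO3, RSPO4, SFRP2, SFRP5 and WNT6 lie higher in all s_light libraries and FZD6 lower, the groups of WNT7B overlap in s_deep6403 and s_light8275, and WIF1 has 1 high library, s_deep7858 at 11.4 FPKM.

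Among the ligands, WNT6 and WNT7B had a limma unadjusted p under 0.05, in opposite directions. WNT6, an epithelial ligand that signals through β-catenin, had 28.5, 22.5 and 15.7 FPKM in the s_deep birds against 30.3, 33.3 and 30.7 FPKM in the s_light birds. The s_light birds lay within a narrow band above the s_deep birds, with means of 31.4 ± 1.61 and 22.2 ± 6.40 FPKM (limma log2 fold change 0.54, SE 0.21, 95% interval 0.04 to 1.04, unadjusted p = 0.0376, adjusted p = 0.742). Its unadjusted p was 0.05 or above when any library other than s_deep6402 was left out, with log2 fold changes of 0.31 to 0.57, and 0.0062 without s_deep6402, where the log2 fold change was 0.74. With the W covariate the log2 fold change was 0.97 (limma unadjusted p = 0.0018), and s_deep7858, the s_deep library with W reads, was the lowest of all.

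WNT7B, an epidermal ligand, had 11.7, 4.84 and 10.4 FPKM in the s_deep birds against 4.47, 2.28 and 5.18 FPKM in the s_light birds. The groups overlapped, s_deep6403 lying below s_light8275 (limma log2 fold change -1.13, SE 0.42, 95% interval -2.13 to -0.14, unadjusted p = 0.0308, adjusted p = 0.716). The WNT7B log2 fold change was -0.90 without s_deep6402 (limma unadjusted p = 0.105), -0.98 without s_deep7858 (unadjusted p = 0.0946), -0.79 without s_light6971 (unadjusted p = 0.0991) and -1.498 with the W covariate (unadjusted p = 0.0420). Its relative WNT7A had 1.71, 1.41 and 1.31 FPKM in the s_deep birds against 1.19, 0.86 and 1.24 FPKM in the s_light birds. All s_light birds were lower, but by little (limma log2 fold change -0.41, SE 0.27, unadjusted p = 0.173, adjusted p = 0.926), and the log2 fold change was -0.28 with the W covariate. The other 13 tested ligands overlapped between groups.

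A total of 3 receptors had groups that did not overlap. FZD6, which in mice orients hair follicles through planar polarity, had 36.1, 26.3 and 19.7 FPKM in the s_deep birds against 13.7, 18.6 and 16.6 FPKM in the s_light birds. It was lower in every s_light bird, with means of 27.4 ± 8.27 and 16.3 ± 2.44 FPKM (limma log2 fold change -0.71, SE 0.23, 95% interval -1.26 to -0.16, unadjusted p = 0.0182, adjusted p = 0.655). Here too s_deep7858 was nearest to s_light, and the log2 fold change was -0.30 with the W covariate (limma unadjusted p = 0.264). Without s_light6575 the limma unadjusted p was 0.0664. FZD2 had 9.81, 8.96 and 10.9 FPKM in the s_deep birds against 11.8, 12.2 and 12.6 FPKM in the s_light birds, a small gap (limma log2 fold change 0.30, SE 0.13, unadjusted p = 0.0519, adjusted p = 0.779), and 0.16 with the W covariate. FZD4, which also serves as the receptor of norrin in blood vessels, had 17.6, 11.02 and 16.1 FPKM in the s_deep birds against 19.3, 17.8 and 20.1 FPKM in the s_light birds (limma log2 fold change 0.38, SE 0.19, unadjusted p = 0.0819, adjusted p = 0.826), 0.23 with the W covariate and 0.51 without s_deep6402 (limma unadjusted p = 0.0370). The FZD6 and FZD4 differences thus lay on opposite sides, and the receptor sum was 100 ± 16.5 FPKM in s_deep and 108 ± 17.99 FPKM in s_light.

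WIF1 and WNT9A were set apart by s_deep7858. WIF1, an antagonist that binds Wnts through a domain of its own, had 2.32, 4.26 and 11.4 FPKM in the s_deep birds against 2.54, 2.11 and 3.35 FPKM in the s_light birds, so that 43.9% of its summed FPKM came from s_deep7858. The means of 5.99 ± 4.78 and 2.67 ± 0.63 FPKM did not differ beyond this spread (limma log2 fold change -0.86, SE 0.54, unadjusted p = 0.153, adjusted p = 0.913). The log2 fold change was -0.26 without s_deep7858, -1.38 without s_deep6402 (limma unadjusted p = 0.0231) and -2.01 with the W covariate (limma unadjusted p = 0.0034). WNT9A, with 0.23, 1.06 and 5.25 FPKM in the s_deep birds against 1.03, 0.90 and 0.33 FPKM in the s_light birds, had 59.7% of its sum in that library and a ratio of 22.8 between its highest and lowest library. Its log2 fold change of -0.69 (limma unadjusted p = 0.497) turned to 0.35 without s_deep7858 and was -2.61 with the W covariate (limma unadjusted p = 0.0253). Among the 4 libraries with W reads, s_deep7858 is the only s_deep bird, so these W-adjusted values, like all others given here, rest largely on it.

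The 25 tested members that met no criterion for a description of their own had log2 fold changes between -0.69 and 0.88, and none had a limma unadjusted p below 0.0636. DKK2 was at the upper end, with 0.68, 1.06 and 1.64 FPKM in the s_deep birds against 2.47, 2.79 and 1.21 FPKM in the s_light birds. Only s_light8275 lay inside the range of s_deep (limma log2 fold change 0.88, SE 0.43, unadjusted p = 0.0791, adjusted p = 0.819), and the log2 fold change was 1.23 without that bird and 0.35 with the W covariate. The 25 include WNT9A, FRZB and SFRP1, and 18 of them had a mean log2 value that was higher in s_light.

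One s_light bird was high for many members at once. Of the 41 tested members, 12 (29.3%) were highest in s_light6575, against 16.7% of all genes tested, and they included 5 of the 10 receptors. FZD10 was read at 6.98 FPKM there and at 1.87 to 3.64 FPKM elsewhere, and FZD1, FZD5, FZD8 and FZD9 had their highest values there too. RSPO1 stood at 1.78 FPKM against 0.16 to 0.43 FPKM, and DKK4 at 0.84 FPKM against 0.00 to 0.27 FPKM. At the other end s_deep6403 was the lowest library for 14 members (34.1%, against 16.1% of all genes), among them RSPO3, RSPO1, SFRP2, SFRP5 and FRZB. The wing number of s_deep6403 is listed among the palest birds in the study's supplementary colour classes, which were graded from carcass photographs.

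The same bird was high in the rest of the pathway. Of 67 tested genes of the pathway lists that are not members, 30 (44.8%) were highest in s_light6575. TCF7, a nuclear partner of β-catenin, was read at 10.7 FPKM there and at 1.54 to 4.20 FPKM in the other 5 libraries. SOSTDC1, a secreted antagonist of Wnt and BMP signals, was read at 20.3 FPKM there and at 2.38 to 5.21 FPKM elsewhere, and MSX2, a homeobox gene of skin appendages, at 20.1 FPKM there and at 3.81 to 8.86 FPKM elsewhere. NOTUM, an enzyme that strips the lipid from Wnts, and LGR6, an R-spondin receptor, were also highest there, at 4.58 and 5.92 FPKM. These genes were picked out after their values were seen. A list of 14 feather follicle and placode markers summed to 229 FPKM in this library and to 158 to 177 FPKM in the others. SHH, a signal of the feather placode, was at 6.04 FPKM against no more than 0.53 FPKM. BMP4, EDAR, SOX9, MSX2, GATA3 and LHX2 were also highest in s_light6575, EDAR at 8.01 FPKM against 8.00 FPKM in s_light8275. BMP7, EDA, FGF10, FOXN1, KRT75 and HOXC13 were highest in other libraries, and FGF20 was at 0 in all. MSX2 and SOX9 are also on the pathway lists. The part of feather tissue in the skin piece of s_light6575 was not tested.

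**Figure D4:**
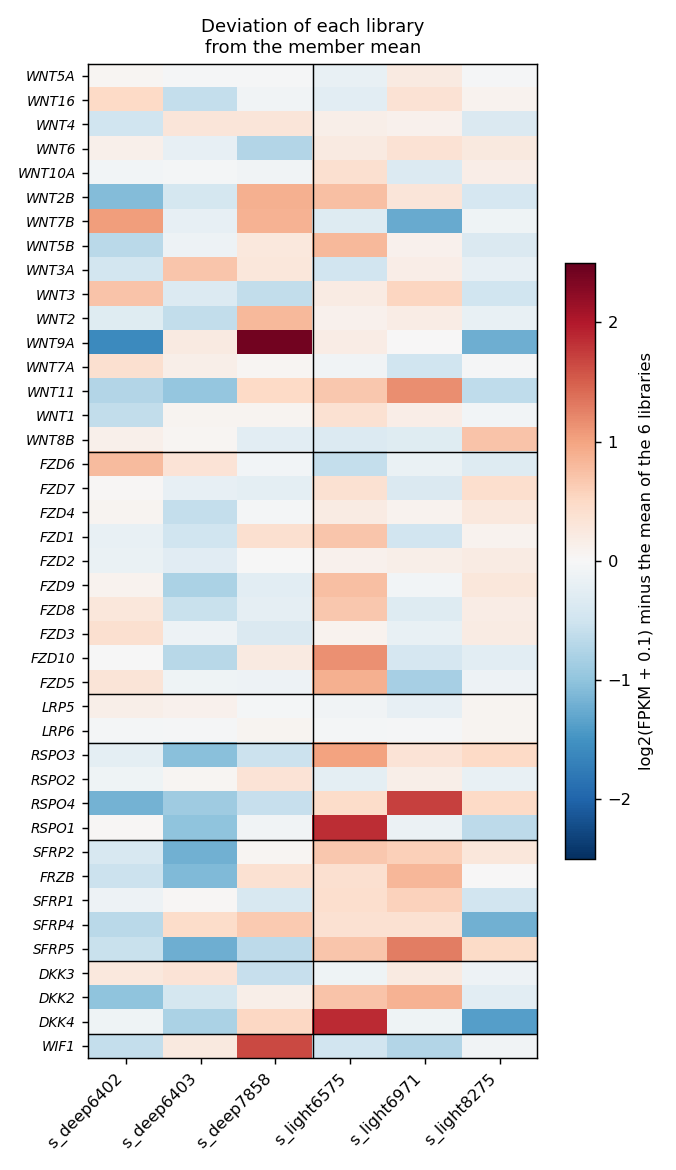
Deviation of each library from the mean of the 6 libraries for each tested member, on log2(FPKM + 0.1); columns are libraries (s_deep left, s_light right of the vertical line), rows are members by role, red is above and blue below the mean. The receptors FZD1, FZD5, FZD8, FZD9 and FZD10 are red in s_light6575, RSPO3, RSPO4, SFRP2 and SFRP5 are red in all s_light libraries, and WNT9A and WIF1 are darkest in s_deep7858.

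The rest of the pathway held few genes that separated the groups. The lists of the rest of the pathway held 76 genes, of which 69 were found in the files by symbol and 67 were tested. Genes not found by symbol, among them GSK3B, DVL3 and PORCN, may still be in the files, since only 83.5% of IDs were matched. None was called (lowest limma adjusted p 0.651), and 2 had a limma unadjusted p under 0.05, which is 2.99% against 6.45% of all genes. Both, LGR5 and DACT2, were higher in s_light. A log2 fold change of 1 or more in either direction was found for 4 of the 67, the others being APC2 and SOSTDC1, against 5.26% of all genes. DACT2, a modulator of Dishevelled, had 0.29, 0.52 and 1.32 FPKM in the s_deep birds against 2.2, 2.16 and 1.45 FPKM in the s_light birds (limma log2 fold change 1.52, SE 0.49, unadjusted p = 0.0178, adjusted p = 0.651). With the W covariate its log2 fold change was 0.57 (limma unadjusted p = 0.272), and leaving out s_deep6402, s_deep6403, s_light6575 or s_light6971 put the limma unadjusted p between 0.0505 and 0.0582. Groups without overlap were found for 3 of the 67 genes (4.48%, against 10.8% of all genes), the third being TCF7L2, where the gap was small at 12.8 to 13.6 FPKM in s_deep and 13.8 to 14.4 FPKM in s_light.

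AXIN2, the feedback gene most often used as a reading of β-catenin signalling, had 23.5, 15.4 and 19.98 FPKM in the s_deep birds against 17.0, 18.3 and 21.3 FPKM in the s_light birds. The groups overlapped fully (limma log2 fold change -0.04, unadjusted p = 0.821). CTNNB1, which encodes β-catenin, ranged from 101 to 163 FPKM and WLS, the carrier that brings Wnts to the cell surface, from 31.9 to 54.6 FPKM, both with overlapping groups. Over the 67 genes the log2 fold change was above 0 for 32 and below 0 for 35, with a median of -0.01. By list, a limma unadjusted p under 0.05 was found for 0 of 14 cytoplasmic transducers and 0 of 11 nuclear factors. It was found for 0 of 15 other receptors and polarity genes and 0 of 2 genes of ligand secretion. A list of other modulators, SOST, SOSTDC1, KREMEN1, NDP, TPBG and IGFBP4, gave 0 of 6. The count was 1 of 5 for genes of R-spondin reception and 1 of 14 for feedback and target genes.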

How the data were processed

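RNA from 6 cloacal skin pieces was sequenced as 1 library per bird. The files deposited by the authors give FPKM to 2 decimals, 1 value for each NCBI gene ID. The submitters' processing notes name HISAT2 2.0.4, Bowtie2 2.2.5, RSEM 1.1.12 and DESeq2 1.4.5, whereas the methods name another aligner and sequencer, so the route to the FPKM is not settled. No counts were used, so the depth behind a value is unknown and no counting interval is given. FPKM summed to between 471488 and 488777 per library.

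Symbols were matched through a RefSeq gene table (assembly GRCg7b, 83.5% of IDs), also used for W and Z genes and for neighbours, and no coordinates or sequences were taken from it. Values were taken as log2(FPKM + 0.1), and genes whose mean reached 0.1 FPKM (15900 of 18315) were fitted with limma 3.58.1 in R 4.3.3. The eBayes step allowed for a trend with level. Differences are s_light minus s_deep without a covariate, and p-values were adjusted over all tested genes by Benjamini-Hochberg. A fold change on this scale understates the change of low genes. Python 3.11.15, pandas 2.3.3, numpy 2.4.6, scipy 1.17.1 and matplotlib 3.10.9 were used for exact two-sided permutation tests, counts and plots. The fit was tested on simulated data.

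Samples were grouped by their labels. In the study's supplementary colour classes, wing 6403 is listed among the palest birds, and a supplementary read table writes the wing number of s_deep7858 with its digits in another order. The labels were kept in both cases. Members were given library by library where the unadjusted p was under 0.05, the groups did not overlap, the absolute log2 fold change was at least 1, the gene led its role (or was second among WNT or FZD), or 1 library held over 80% of the sum. Other members with values per library, and the genes named for s_light6575, were picked out after their values were seen. Members and lists were chosen with earlier results of these data known. The W covariate is the mean log2 value of 34 W-linked genes. Alternatives changed the pseudocount, filter, scaling, trend, W adjustment and the libraries used.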

Additional observations from a re-analysis of the deposited data

How the results depend on the processing

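No paired analysis was possible because no wing number occurs in both groups. With limma, 0 members were called in the main analysis. The 15 alternatives included pseudocounts of 1 and 0.01 FPKM, median-of-ratios and quantile scaling, a filter at a mean of 1 FPKM and no filter. They also included no trend, the W covariate, libraries with W reads alone, and each library left out. The fit of the libraries with W reads alone has 1 s_deep bird, so no count of p-values is given for it. In each of the others 0 members were called, and 5 to 9 had a limma unadjusted p under 0.05, against 4.49% to 8.68% of all genes tested. The 9 members without s_deep7858 went with 8.68% of all genes and the 5 without s_light6575 with 4.97%. Members whose groups do not overlap numbered 9 to 17 with a library left out, where 17.7% to 23.9% of all genes do not overlap, and 23 in the 4 libraries with W reads, where 1 s_deep bird is set against 3 and 50.1% of all genes do not overlap. The median log2 fold change of members stayed above 0 (0.05 to 0.31). With a pseudocount of 1 FPKM the log2 fold changes of RSPO3, RSPO4, SFRP2, SFRP5 and WNT7B were 1.09, 0.96, 0.92, 0.92 and -0.97. Of these 5 members, which had 1 or more in either direction in the main analysis, only RSPO3 stayed there. Pathway genes with a limma unadjusted p under 0.05 numbered 1 at a minimum mean of 1 FPKM, where 6.22% of all genes passed. They numbered 0 with the W covariate (6.08% of all genes) and 1 to 4 with a library left out (4.49% to 8.68% of all genes). Of 26 genes followed under the alternatives, only some of those without an unadjusted p under 0.05 in the main analysis changed direction. They were WNT9A, SFRP4, DKK3, WNT16, WNT5A, LRP6 and AXIN2. With a library left out, log2 fold changes were -1.66 to 0.35 for WNT9A, the last without s_deep7858, which held 59.7% of its summed FPKM, -0.71 to 0.23 for SFRP4, -0.31 to 0.15 for DKK3, -0.14 to 0.41 for WNT16, -0.11 to 0.089 for WNT5A, -0.043 to 0.032 for LRP6 and -0.21 to 0.10 for AXIN2. DKK3 was at 0.56 with the W covariate and 0.57 in the libraries with W reads, and WNT5A at 0.030 and 0.019. Median-of-ratios scaling put WNT5A at 0.0093 and LRP6 at 0.0096. LGR5 has no value at a minimum mean of 1 FPKM. With 3 birds a group, p-values of the exact test cannot go below 0.1, and in a whole skin piece cell makeup and expression cannot be told apart.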
